A study of Mus musculus with 13 samples.

Results

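Stroma 2 was one of the 2 clusters of stromal nuclei in single nuclei ATAC-seq (snATAC-seq) data of whole mouse kidney. In snATAC-seq an enzyme cuts and tags DNA where chromatin is open, so that each nucleus yields a list of accessible regions. The nuclei were taken by the cluster name in the deposited annotation, in all 5 libraries, and numbered 3539 of 28316. The annotation placed 27652 nuclei in 13 named clusters, and stroma 2 was compared with the 11 of these that are not stromal. They comprised immune cells, endothelium, podocytes and nephron progenitors, and along the tubule the proximal convoluted (PCT) and proximal straight (PST) segments, the loop of Henle (LOH), the distal convoluted (DCT) and connecting (CNT) tubules, and the intercalated (IC) and principal (PC) cells of the collecting duct. Stroma 1, with 1479 nuclei, served as the most similar cluster.

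The libraries came from unmodified and untreated mice at 3 ages, namely postnatal day 0 (P0, 2 samples, for which the protocol gives mice of 1 day), P21 (1 sample) and P56 (2 samples). P21 and P56 were treated together as adult. Stroma 2 held 1309, 1145, 206, 535 and 344 nuclei in P0 replicate 1, P0 replicate 2, P21, P56 replicate 1 and P56 replicate 2, and all values by sample follow this order. These were 22.1%, 21.4%, 6.33%, 7.72% and 5.55% of the nuclei in named clusters. Both P0 libraries lay above the 3 adult ones, at 21.8% ± 0.537 (SD, n = 2) against 6.53% ± 1.098 (SD, n = 3). An exact permutation test, two-sided by doubling the smaller tail, gave p = 0.2, the smallest that this test allows for 2 samples against 3. A share also depends on how many nuclei of the other types were recovered, and more stroma 2 nuclei and fewer of the others cannot be told apart.

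The stroma 2 nuclei gave 9479984, 9003908, 878544, 1879672 and 1448349 open calls in all, an open call being 1 peak found open in 1 nucleus. The median nucleus had 6930, 7624, 3465.5, 3384 and 3311 open peaks, where the median over the 11 non-stromal clusters was 6263, 6579, 4305, 3401 and 6425.5. Stroma 2 was thus deeper than the other clusters at P0 and shallower in the adult libraries, by little in P56 replicate 1, and shares of nuclei are also given after each nucleus was thinned to 1000 open peaks. Of 27834 distinct barcodes 477 occurred in 2 or more libraries, and 5 of those were carried by stroma 2 nuclei of different libraries.

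Renal stroma comprises the fibroblasts of the interstitium, the pericytes and smooth muscle cells around vessels, the mesangial cells of the glomerulus and the renin cells of the afferent arteriole. Most of these derive from embryonic progenitors that express the forkhead factor Foxd1. They deposit the collagens and microfibrils of the organ, respond to PDGF through its receptors, and receive hedgehog ligands from the epithelium. Open chromatin over or near a gene accompanies its use but is not a measure of its transcript.

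Col3a1, which encodes the chain of collagen III, and Pdgfrb, the PDGF receptor of pericytes and mesangial cells, mark this cluster, and both were more accessible in stroma 2 than in any of the 11 clusters. Gene activity was the number of open calls in peaks over the gene body and the 2 kb upstream, and a level is given in CPM, open calls in 1000000 calls over all genes. Col3a1 (chromosome 1, 45311538 to 45349706, mm10) had levels of 60.8, 54.0, 33.4, 35.9 and 39.8. The mean was 44.8 ± 11.97 (SD, n = 5) against 21.5 ± 10.1 in stroma 1 and 6.64 ± 1.87 in podocytes, the highest of the 11, and all 5 libraries led. The log2 difference from the mean of the 11 was 3.75 (SE 0.176). The peak over its transcript start was open in 11.7% ± 7.71 of stroma 2 nuclei, 4.64% of stroma 1 and 1.19% of podocytes. After thinning it was open in 2.25% of stroma 2, 0.362% of stroma 1 and 0.198% of CNT, then the highest of the 11.

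Pdgfrb (chromosome 18, 61045150 to 61085061) had levels of 176, 166, 242, 231 and 251, against 130.1 ± 42.6 in stroma 1 and 73.0 ± 24.6 in podocytes. All 5 libraries led the 11 clusters, and the log2 difference was 3.20 (SE 0.131). Its start peak was open in 12.3% ± 3.84 of stroma 2 nuclei, 10.5% of stroma 1 and 3.51% of podocytes. After thinning the shares were 1.51%, 2.42% and 0.932%, so that stroma 1 stood above stroma 2 at this peak once depth was equal.

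**Figure D1:**
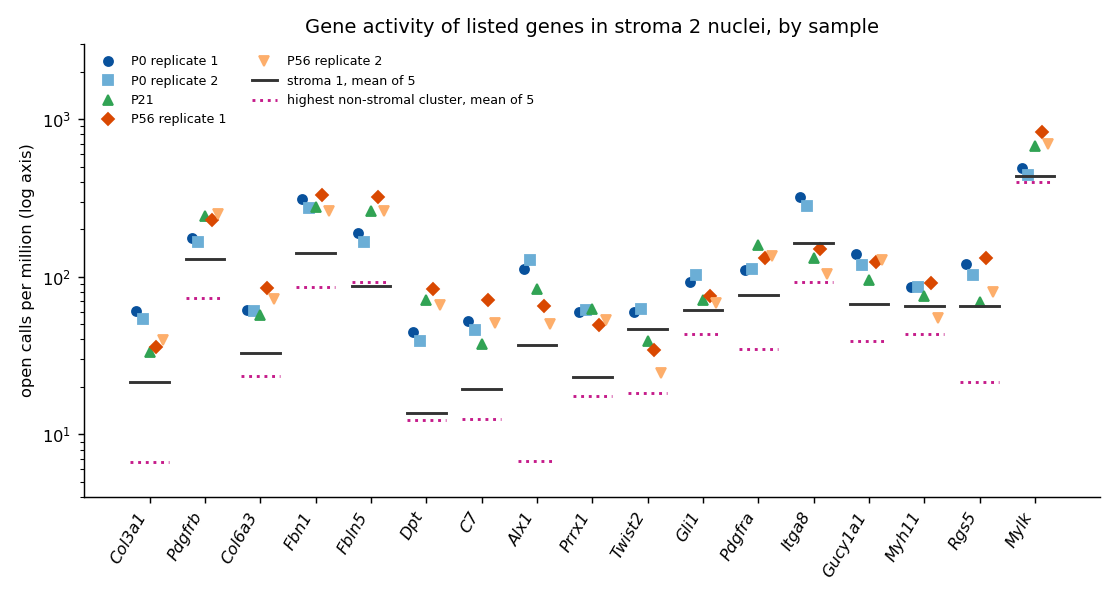
Gene activity of listed genes in stroma 2 nuclei, in CPM on a log axis, with 1 symbol per sample, the stroma 1 mean as a solid line and the mean of the highest non-stromal cluster as a dotted line. Alx1, Col3a1 and Dpt lie far above the dotted lines, whereas Mylk lies close to the dotted line of endothelium (399).

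The peaks that set these nuclei apart were sought by summing open calls per sample and cluster and calling a peak when stroma 2 exceeded each of the 11 clusters. The clusters were made from the same nuclei, so these calls rank and describe the peaks and carry no p-value here. Of 77118 peaks with enough calls, 3916 were higher (5.08%) and 20 were lower (0.0259%). The higher peaks had a median log2 difference of 4.55 from the mean of the 11. They were open in a median of 9.50% of stroma 2 nuclei and 2.002% of nuclei of the next cluster. In 3540 of them (90.4%) stroma 2 led the 11 clusters in all 5 libraries. The peaks were chosen on these same libraries for exceeding each of the 11, which largely sets that lead. The counts of higher and lower peaks were 2484 and 10 without P0 replicate 1, 2290 and 8 without P0 replicate 2, 4908 and 12 without P56 replicate 1, and 2468 and 11 without the sample as a block. They were 3249 and 73 by DESeq2, 13247 and 16 of 174406 tested peaks with P0 samples alone, and 2643 and 3 of 59004 with adult samples alone. After thinning 14482 peaks could be tested and 163 were called.

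The called peaks were mostly intronic or distal and lay far from transcript starts. Introns held 41.9% of them and distal sequence 36.7%, against 39.0% and 23.0% of all tested peaks. Exons held 16.7% against 32.8%, and a transcript start lay in 7.58% against 22.6%. The median distance to the nearest start was 30280 bp against 9559 bp, and 37.5% against 18.6% lay more than 50 kb away. The next highest cluster was that of podocytes for 738 peaks (18.8%), of nephron progenitors for 712 (18.2%) and of endothelium for 626 (16.0%). PCT and LOH were the next highest cluster least often, for 87 and 73 peaks.

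Of the called peaks, 1800 were open in at least 10% of stroma 2 nuclei, and the 8 with the largest differences among them are named here as peaks 1 to 8. Each led in 5 of 5 libraries, which the choice of called peaks largely sets. The sequences of peaks 3, 5, 7 and 8 are shown because these regions were among the most widely open and lay in or near genes of matrix, adhesion and stromal transcription. Each is a stretch of at most 300 bases of the plus strand of GRCm38 (RefSeq), read 5′ to 3′, and capitals mark matches to the motifs searched, on either strand.
Peak 3, chr15:7352760-7353059: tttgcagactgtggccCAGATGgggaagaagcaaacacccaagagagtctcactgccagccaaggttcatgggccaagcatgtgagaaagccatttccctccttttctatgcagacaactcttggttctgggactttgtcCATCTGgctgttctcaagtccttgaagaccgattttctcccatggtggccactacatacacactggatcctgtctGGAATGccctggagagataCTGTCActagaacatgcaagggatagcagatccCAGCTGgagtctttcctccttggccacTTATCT
Peak 5, chr10:22916195-22916494: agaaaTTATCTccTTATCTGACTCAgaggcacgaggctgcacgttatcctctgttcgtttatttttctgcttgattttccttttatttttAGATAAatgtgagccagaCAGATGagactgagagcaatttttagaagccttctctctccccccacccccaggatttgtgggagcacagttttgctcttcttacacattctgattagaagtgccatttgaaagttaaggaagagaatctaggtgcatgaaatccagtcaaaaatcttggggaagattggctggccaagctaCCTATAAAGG
Peak 7, chr8:102845485-102845712: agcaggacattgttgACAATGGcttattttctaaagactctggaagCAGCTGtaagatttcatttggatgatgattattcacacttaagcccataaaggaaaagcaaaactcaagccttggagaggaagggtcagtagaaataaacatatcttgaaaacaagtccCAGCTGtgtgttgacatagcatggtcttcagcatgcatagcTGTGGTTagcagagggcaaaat
Peak 8, chr12:101793368-101793667: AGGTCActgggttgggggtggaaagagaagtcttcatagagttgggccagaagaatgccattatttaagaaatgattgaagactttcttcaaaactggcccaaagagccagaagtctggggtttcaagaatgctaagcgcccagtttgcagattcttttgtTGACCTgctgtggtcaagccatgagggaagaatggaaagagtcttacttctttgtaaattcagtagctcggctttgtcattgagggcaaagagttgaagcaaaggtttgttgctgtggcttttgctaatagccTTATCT
Peak 3 held the Twist type E-box CAGATG in both orientations, the Tcf21 type E-box CAGCTG, and TEAD, MEIS and GATA matches. Peak 5 held 3 GATA matches, 1 of them overlapping an AP-1 match, the E-box CAGATG and a CArG box, the element bound by serum response factor. Peak 7 held CAGCTG at 2 places, a SOX match and the RUNX letters TGTGGTT. Peak 8 held the nuclear receptor letters AGGTCA in both orientations and a GATA match.

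Peak 8, in an intron of the elastic fibre gene Fbln5 (chr12:101793309-101794044), was the most widely open of the 8. It was open in 21.2%, 19.7%, 26.2%, 26.7% and 27.3% of stroma 2 nuclei, 2.32% ± 1.88 of stroma 1 and 1.20% ± 0.571 of endothelium. Every library stood far above both, with a log2 difference of 6.68 (SE 0.248) from the 11 clusters and 3.00 (SE 0.388) from stroma 1. After thinning it was open in 5.89% of stroma 2 nuclei, 0.446% of stroma 1 and 0.101% of endothelium.

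Peak 3 lay in an intron of Egflam, which encodes the matrix protein pikachurin (chr15:7352643-7353376). It was open in 28.6%, 25.9%, 17.5%, 18.9% and 17.4% of stroma 2 nuclei, 6.39% ± 5.34 of stroma 1 and 0.741% ± 0.942 of podocytes (log2 difference 6.72, SE 0.254). Both P0 libraries were above the 3 adult ones, whose nuclei were also shallower. After thinning it was open in 5.05% of stroma 2 nuclei, 1.54% of stroma 1 and 0.392% of PST.

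Peak 7 lay 60102 bp from the start of Cdh11, which encodes a cadherin of mesenchymal cells (chr8:102845465-102846023). It was open in 25.7%, 25.4%, 12.6%, 17.2% and 12.5% of stroma 2 nuclei, 3.32% ± 4.15 of stroma 1 and 0.546% ± 0.897 of podocytes (log2 difference 6.69, SE 0.261). Here too the P0 libraries were the higher ones. After thinning it was open in 3.55% of stroma 2 nuclei, 0.452% of stroma 1 and 0.0758% of CNT.

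Peak 5 lay 95985 bp from the start of Tcf21, a helix-loop-helix factor of stroma and podocytes (chr10:22915821-22916497). It was open in 21.8%, 20.7%, 12.1%, 10.3% and 14.8% of stroma 2 nuclei, 3.99% ± 4.28 of stroma 1 and 1.51% ± 2.21 of podocytes (log2 difference 6.69, SE 0.2996), and after thinning in 3.44% of stroma 2 nuclei, 0.886% of stroma 1 and 0.488% of podocytes. Over the Tcf21 gene itself podocytes were the highest cluster, with a level of 103 ± 20.9 against 92.9 ± 30.2 in stroma 2, and the gene was not called. Peak 5 had been chosen for exceeding every non-stromal cluster, podocytes among them, whereas the gene had not been chosen in this way. The lead of the peak over podocytes was set by that choice, so peak and gene cannot be compared on this point. A link between the peak and Tcf21 was not tested.

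The other 4 peaks lay in an intron of Itih5 (peak 1, chr2:10193403-10194177) and in distal sequence nearest to Lnpk (peak 2), Secisbp2l (peak 4) and, on chromosome 18, Rit2 (peak 6). They were open in means of 12.99%, 11.9%, 13.7% and 16.8% of stroma 2 nuclei and at most 2.48% of any of the 11 clusters. Peak 1 was more often open in the adult libraries (13.6%, 19.1% and 15.4%) than at P0 (8.33% and 8.56%), although the adult nuclei were shallower.

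**Figure D2:**
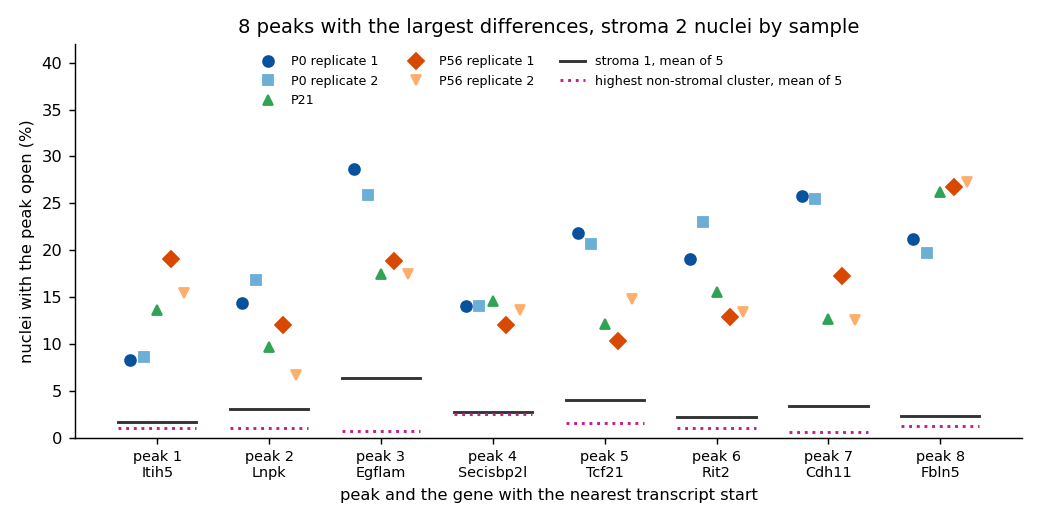
Share of stroma 2 nuclei with the peak open (%), for the 8 called peaks with the largest differences, by sample, with stroma 1 (solid line) and the highest non-stromal cluster (dotted line). All 5 libraries lie above both lines at each of the 8 peaks, which were chosen on these libraries for exceeding the non-stromal clusters.

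Over all called peaks, E-box, GATA and HOX-PBX letters were more frequent, and HNF1 and HNF4 letters, which belong to tubule factors, less frequent than in tested peaks. Called peaks were chosen for exceeding every tubule cluster, whereas the tested peaks include those open in tubule. A lower share of tubule letters is largely set by that choice. The central 300 bp held CAGCTG in 32.2% of called and 22.2% of tested peaks, and CAGATG in 27.4% against 19.998%. The GATA letters AGATAA stood in 17.5% against 11.4%, the TEAD letters GGAATG in 23.1% against 18.8%, the RUNX letters TGTGGTT in 8.10% against 6.10% and the HOX-PBX letters TGATTNAT in 7.23% against 4.13%. The MEF2 letters CTATTTAT stood in 1.74% against 1.01% and the CArG box in 2.35% against 1.44%. The HNF1 letters GTTAATNAT stood in 0.613% against 1.79%, the HNF4 letters CAAAGTCCA in 0.409% against 0.999% and the ETS letters ACCGGAA in 0.894% against 2.13%. Called peaks were poorer in G and C (47.4% against 52.1%), and its part in these shares was not tested. Away from transcript starts the ratio of the called to the tested share was 1.42 for CAGCTG, 1.37 for AGATAA, 0.299 for GTTAATNAT and 0.632 for ACCGGAA, which had 0.419 over all positions. Over whole peaks, away from starts, the ratio was 0.951 for ACCGGAA and 0.550 for GTTAATNAT, both closer to 1. A match is a run of letters, not a bound site.

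At the gene level 309 of 16678 genes were higher in stroma 2 than in each of the 11 clusters (1.85%) and 35 were lower (0.21%). The higher genes had a median log2 difference of 2.08, where all tested genes had -0.01, and 270 of them led in all 5 libraries. The choice of these genes on the same libraries largely sets both values. Lists of matrix, mesangial, and pericyte and smooth muscle genes had the largest medians. On the lists of other cell types 0 genes were called in either direction by edgeR or by DESeq2, and 0 higher and 1 lower without adjustment. Most of these lists hold markers of one of the 11 clusters, which a higher call must exceed. The rule thus largely sets the absence of higher calls, which does not measure how pure stroma 2 is. The lower genes numbered 16, 18 and 18 without P0 replicate 1, P0 replicate 2 and P56 replicate 1, 11 without the sample as a block, 8 with adult samples alone and 57 with P0 samples alone. Without the sample as a block 102 genes were called higher, after thinning 147 of 13200, and from the peaks over transcript starts alone 137.

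**Figure D3:**
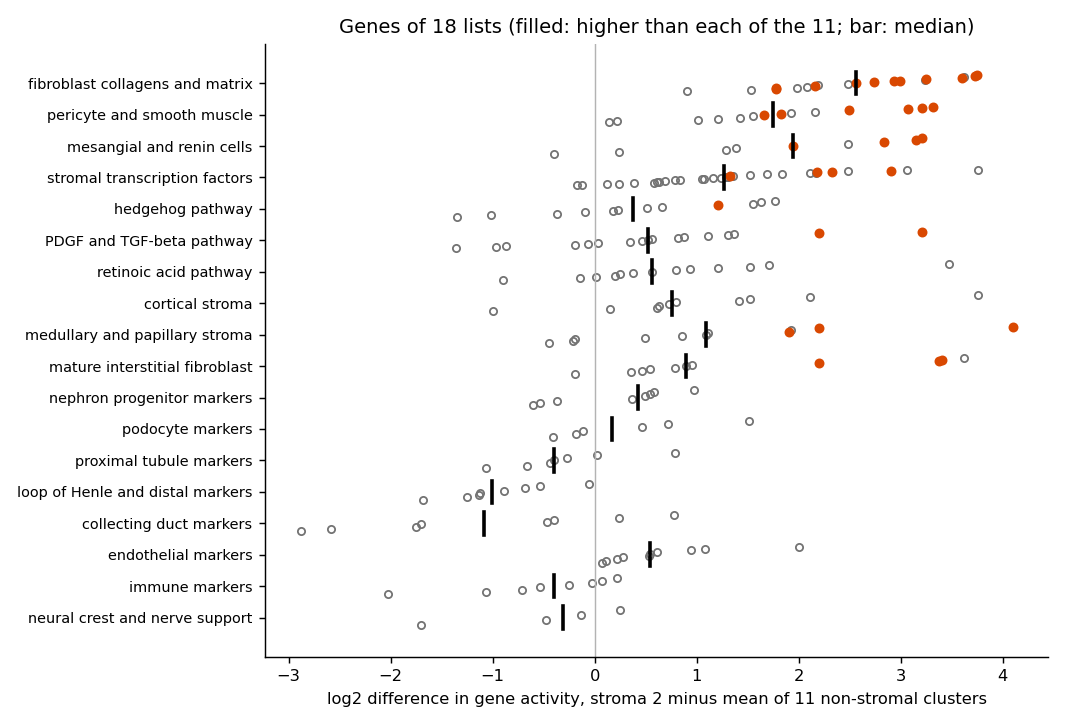
Log2 difference in gene activity between stroma 2 and the mean of the 11 non-stromal clusters for each tested gene of the lists, with filled points for genes higher than each of the 11 and a bar at the median of the list. Matrix genes lie farthest to the right (median 2.56), and loop of Henle and collecting duct markers farthest to the left (medians -1.003 and -1.09).

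Fibroblast collagens and matrix genes formed the list with the most called members, 11 of 19 tested genes (of 20), and a median log2 difference of 2.56. Besides Col3a1 these were Col1a1 (1.78), Col5a1 (1.78), Col6a1 (3.73), Col6a2 (3.60), Col6a3 (2.93), Col14a1 (2.74), Fbn1 (2.56), Fbln5 (2.99), Loxl1 (3.25) and Mfap5 (2.16), with the log2 differences from the 11 in parentheses. Col6a1, Col6a2 and Col6a3 encode the chains of collagen VI, which forms fine filaments around interstitial cells. Col6a2 levels were 56.7, 50.5, 50.1, 43.5 and 55.9, against 28.4 ± 19.1 in stroma 1 and 10.6 ± 7.22 in podocytes. Col6a3 levels were 61.9, 60.5, 57.1, 84.9 and 72.0, against 33.0 ± 17.4 in stroma 1 and 23.5 ± 7.69 in nephron progenitors. For both chains the lowest stroma 2 library stood above the highest mean of the 11.

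Several of the matrix genes belong to the elastic fibre. Fbn1, the fibrillin of microfibrils, had levels of 310.4, 273, 277, 329 and 263, against 141 ± 60.3 in stroma 1 and 85.7 ± 24.4 in nephron progenitors. Fbln5 had 188, 165, 260.4, 319.7 and 262, against 87.2 ± 57.4 in stroma 1 and 92.5 ± 16.1 in endothelium, with the P0 libraries lowest but above endothelium. Loxl1, which crosslinks elastin, had 194, 176, 199, 222 and 241, against 122 ± 77.9 in stroma 1 and 101 ± 45.0 in podocytes. Elastin itself (Eln) led in 5 of 5 libraries, with 101 ± 21.9 against 72.6 ± 11.3 in endothelium, but did not pass against each of the 11. Dcn, a small proteoglycan that binds collagen, had a log2 difference of 3.62 and did not pass either, with 38.6 ± 6.09 against 15.1 ± 7.05 in IC. Fn1, which encodes fibronectin, had 49.2 ± 15.0 against 55.9 ± 8.37 in PST.

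Of 14 tested pericyte and smooth muscle genes (of 15), 6 were called, with a median of 1.74. Rgs5, a regulator of G protein signalling found in pericytes, had levels of 121, 103, 69.6, 132 and 79.6, against 65.4 ± 19.8 in stroma 1 and 21.5 ± 13.7 in nephron progenitors (log2 difference 3.32, SE 0.167). Myh11, the smooth muscle myosin heavy chain, had 85.8, 85.9, 75.2, 91.1 and 55.1, against 65.4 ± 37.0 in stroma 1 and 43.4 ± 11.8 in endothelium (1.83, SE 0.138). Pdgfrb, desmin (Des, 3.07), the actin nucleator Lmod1 (2.49) and myosin light chain kinase (Mylk, 1.66) were called too. Acta2, smooth muscle actin, was not called, with 50.7 ± 17.7 in stroma 2 and 64.7 ± 23.6 in stroma 1. Myocd, the smooth muscle coactivator, had 35.9 ± 15.8 in stroma 2, 64.9 ± 37.5 in stroma 1 and 24.5 ± 7.53 in podocytes. Notch3, a receptor of vascular smooth muscle, had 55.8 ± 11.6 and led in 0 of 5 libraries.

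Of 9 tested mesangial and renin cell genes 4 were called, with a median of 1.95. Gucy1a1 and Gucy1b1 encode the subunits of the guanylate cyclase that senses nitric oxide. Gucy1a1 had 138, 118, 94.7, 124 and 127, against 66.8 in stroma 1 and 39.2 ± 12.1 in PCT, and Gucy1b1 had a log2 difference of 2.84. Itga8, an integrin of mesangial cells, had 321, 281, 131, 151 and 104, high at P0 and lower in the adult libraries, against 92.3 ± 43.9 in endothelium, and led in 4 of 5 libraries. Ren1, which encodes renin, had 12.7 ± 5.38 in stroma 2, 19.6 ± 5.33 in stroma 1 and 14.2 ± 5.12 in PC.

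Of 30 stromal transcription factors 4 were called, with a median of 1.26. They were the homeobox gene Prrx1 (2.32), the helix-loop-helix genes Twist1 (2.18) and Twist2 (2.91), and Hic1 (1.33), a zinc finger repressor. Prrx1 had levels of 59.8, 61.2, 62.7, 49.7 and 53.4, against 23.0 ± 9.12 in stroma 1 and 17.5 ± 4.69 in podocytes. Between stroma 2 and stroma 1 the log2 difference was 1.41 (SE 0.326) for Prrx1, -0.42 (SE 0.248) for Twist1 and 0.08 (SE 0.290) for Twist2. Several factors of the list were at least as accessible in another lineage. Foxd1 had 25.7 ± 7.50 in stroma 2 and 83.6 ± 24.1 in podocytes, Ebf1 had 359.7 ± 69.7 and 366 ± 72.0 in endothelium, and Meis2 had 284 ± 28.1 and 369 ± 60.9 in endothelium.

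Among 12 genes of the hedgehog pathway 1 was called, the transcription factor Gli1, which is also a target of the pathway. The ligand genes had lower levels in stroma 2 than in another cluster. Shh had 9.17 ± 2.71 against 56.8 ± 4.00 in PC, Ihh 19.3 ± 6.03 against 106 ± 11.5 in PST, and Dhh, which shares peaks with Rhebl1, 26.4 ± 3.01 against 69.8 ± 22.5 in endothelium. Ptch1 was open in many clusters, with 217 ± 34.5 in stroma 2 and 239 ± 18.02 in IC. Gli1 had 92.1, 102, 71.0, 76.0 and 67.8, against 61.2 ± 14.3 in stroma 1 and 43.6 ± 9.20 in LOH (1.21, SE 0.0838). Hhip, which binds the ligands at the surface of receiving cells, led in 5 of 5 libraries with 46.8 ± 28.1 against 28.8 ± 17.6 in PC, but did not pass.

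Of 17 PDGF and TGF-beta genes 2 were called, the receptors Pdgfra and Pdgfrb. Pdgfra, the PDGF receptor of interstitial fibroblasts, had 110.4, 111, 159, 132 and 136, against 76.7 ± 32.4 in stroma 1 and 34.6 ± 14.7 in PC. The ligand gene Pdgfb had 33.2 ± 18.02 against 201 ± 81.9 in endothelium, a log2 difference of -1.36 from the 11. Of 13 retinoic acid genes 0 were called (2 without adjustment, 0 by DESeq2), near the 1.85% of all genes. Ecm1, on that list, had a log2 difference of 3.47 and led in 5 of 5 libraries, but shares peaks with Tars2.

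Of the lists that divide the stroma by region and age, the medullary and papillary list had 3 called of 11 (Alx1, Pdgfra and Penk), the mature interstitial list 3 of 11 (C7, Dpt and Pdgfra) and the cortical list 0 of 10 (1 without adjustment, 0 by DESeq2). Pdgfra stands on both the medullary and the mature list. Over all genes 1.85% were called higher, and the cortical count is near that share. Of the cortical genes 9 of 10 lay above the mean of the 11. Their levels summed to 1673 CPM in stroma 2 and 1516 in endothelium, the highest of the 11. Alx1, a homeobox factor, had levels of 113, 128, 83.5, 64.9 and 50.0, against 37.0 ± 33.7 in stroma 1 and 6.81 ± 3.38 in CNT (4.10, SE 0.176). Dpt, which encodes the matrix protein dermatopontin, had 44.6, 39.0, 71.0, 83.5 and 66.1, against 13.7 ± 7.35 in stroma 1 and 12.3 ± 10.6 in nephron progenitors (3.37, SE 0.170). C7, a component of terminal complement, had 52.5, 45.6, 37.6, 71.1 and 50.8, against 19.3 ± 4.77 in stroma 1 and 12.6 ± 8.99 in endothelium (3.41, SE 0.203). In all 3 genes the lowest stroma 2 library stood above the mean of every one of the 11 clusters.

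The 12 genes with the largest differences among those that led in every library were Gm10945 (6.03), Csnka2ip (4.87), Gm11232 (4.79), Prg4 (4.75), 1700012B07Rik (4.59), Mettl21e (4.51), Pi15 (4.495), Cxcl9 (4.49), Ascl3 (4.47), C1qtnf2 (4.37), Xirp2 (4.35) and Kcnmb1 (4.24). Each was counted over 1 to 8 peaks. Prg4 was not called by DESeq2, without P21, without P56 replicate 1 or without the sample as a block. Xirp2 was not called by DESeq2, without either P56 replicate, without the block or with P0 samples alone. C1qtnf2 was not called from start-site peaks alone, nor Gm11232 in adult samples alone. Not all of the 12 had a value in each alternative. After thinning 2 had one, and 9 had one without P0 replicate 1 and without P0 replicate 2. Gm10945 had none after thinning, without either P0 replicate, without P56 replicate 2 or in adult samples alone. C1qtnf2, which encodes a secreted protein of the C1q and TNF family, had 97.1, 86.8, 107, 118 and 94.0, against 45.6 ± 42.3 in stroma 1 and 20.5 ± 9.77 in endothelium. Kcnmb1, the beta subunit of the calcium-activated potassium channel of smooth muscle, had 53.2, 50.1, 23.7, 29.0 and 34.7, against 20.7 ± 7.52 in stroma 1 and 3.94 ± 2.73 in immune cells, and shares peaks with Kcnip1. Pi15, which encodes a secreted peptidase inhibitor, had 39.1, 36.7, 47.3, 52.5 and 31.3, against 23.5 ± 7.49 in stroma 1 and 4.39 ± 5.64 in PC. Cxcl9, a chemokine gene, had 29.7, 28.6, 33.4, 45.6 and 44.0 from 2 peaks, against 15.3 ± 10.8 in stroma 1 and 10.8 ± 2.80 in endothelium. Gm10945, first in order, rests on 1 peak that lies also within Oprm1.

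Each list of markers of other cell types was lower in stroma 2 than in the cluster where it was highest, but not at 0. Among the 12 clusters stroma 2 had rank 3 for podocyte markers, with a mean of 586 against 453 over the 11, and rank 3 for endothelial markers, with 402 against 508, below the mean level of the 11. On the log2 scale, where each cluster's log level is averaged, the 10 endothelial genes had a median difference of 0.54, so level and log2 difference ran in opposite directions. Nephron progenitor markers (136) were near the mean of the 11 (144), and immune markers had rank 12. Over the 5 libraries endothelial markers summed to 328 to 470.0 against 3075 ± 690.0 in endothelium (in CPM), and immune markers to 85.6 to 133 against 865 ± 158 in immune cells. Proximal tubule markers summed to 258 to 402 against 1603 ± 369.8 in PCT, loop of Henle and distal markers to 124 to 256 against 1245 ± 369 in DCT, and collecting duct markers to 84.7 to 143 against 529 ± 82.3 in IC. Podocyte markers summed to 565 to 648 against 1539 ± 190.4 in podocytes, nephron progenitor markers to 82.2 to 206 against 247 ± 183 in nephron progenitors, and neural crest and nerve markers to 66.3 to 74.5 against 179 ± 23.6 in IC. Such sums and ranks can rest largely on 1 gene. In the largest P0 and adult sub-clusters, described below, Synpo gave 294 of 534 and 395 of 568 CPM of the podocyte list. Cubn gave 197 of 300 and 89.9 of 158 CPM of the proximal tubule list there. Among single markers Akr1c21, C1qa, C1qb, Foxi1 and Ptprc had 0 calls in at least 1 adult library of stroma 2, which allows up to 3 calls there by counting error.

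Of the called genes 288 (93.2%) and of the called peaks 3713 (94.8%) were above stroma 1, by medians of 0.68 and 1.11 on the log2 scale. The called features were chosen for being high in stroma 2, which largely sets these shares, and over all genes tested 7899 of 16678 were above stroma 1 (median -0.02). By list this was 19 of 19 matrix, 8 of 14 pericyte and smooth muscle and 6 of 9 mesangial and renin cell genes. Their median log2 differences from stroma 1 were 0.92, 0.35 and 0.24. Above stroma 1 were also 9 of 17 PDGF and TGF-beta genes, 6 of 13 retinoic acid genes, 5 of 10 cortical genes and 2 of 10 endothelial markers. Among the listed stromal genes the gap was widest for Dpt (1.81, SE 0.288), Col6a1 (1.70, SE 0.456), Col14a1 (1.501, SE 0.262), C7 (1.48, SE 0.337) and Prrx1 (1.41, SE 0.326). It ran the other way for Pdgfc (-1.31, SE 0.221), Sall1 (-1.0997, SE 0.212), Pdgfb (-1.07, SE 0.278), Crabp1 (-1.04, SE 0.344) and Gata3 (-0.93, SE 0.295), which encode 2 PDGF ligands, 2 developmental transcription factors and a retinoic acid binding protein. The smooth muscle gene Myocd and Ren1 differed from stroma 1 by -0.63 (SE 0.315) and -0.62 (SE 0.285). Both clusters were drawn from the same nuclei, so these gaps describe the division and are not tested.

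Within stroma 2 the nuclei fell into 5 sub-clusters at P0, of 989, 549, 408, 313 and 195 nuclei, and 5 in the adult libraries, of 346, 297, 167, 151 and 124, numbered by size. Each P0 sub-cluster drew on both replicates. In the adult, sub-cluster 1 had 323 of 346 and sub-cluster 3 had 158 of 167 nuclei from P56 replicate 1, and sub-cluster 2 had 87 from P21, 1 from P56 replicate 1 and 209 from P56 replicate 2. In these 3 a cell type and a library cannot be told apart. Alx1 stood at 168 CPM in adult sub-cluster 3 and 163 in sub-cluster 5, and at 18.2 to 37.6 in the other 3. The medullary and papillary list summed to 833 and 775 in these sub-clusters and to 426 to 495 in the others.

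Adult sub-clusters 4 and 5 carried markers of other cell types. In sub-cluster 4 the tubule markers summed to 1315 CPM, 2.20 times the value over all adult stroma 2 nuclei (597), and its leading genes included Tfcp2l1, Kif12, Cyp2j11, Acsm1 and Pdzk1, the first at 192 against 6.80. Its matrix list summed to 1098 against 1912, and its median nucleus had 6981 open peaks against 2789 to 3889.5 in the other 4. In sub-cluster 5 the endothelial markers summed to 835 against 343, 2.44 times, and Kdr, Esam, Ptprb and Erg were among its leading genes. Together they held 101 stroma 2 nuclei of P21 (49.0%), 53 of P56 replicate 1 (9.91%) and 121 of P56 replicate 2 (35.2%). At P0 the largest such ratio was 1.34, for endothelial markers in sub-cluster 4. P0 sub-cluster 5, the deepest, had a ratio of 1.34 for tubule markers (783 against 585) and shared Acsm1, Cyp2j11, Kif12, Klhdc7a, Pdilt and Pdzk1ip1 with adult sub-cluster 4 among its leading genes. Acsm1 stood there at 35.4 against 2.05 in the other P0 nuclei. The part of doublets in these sub-clusters was not tested.

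Without these 275 nuclei (7.77%), an alternative chosen after seeing the data, 383 genes were called, among them 303 of the 309. Of the called peaks 3210 (82.0%) were among the 3400 then called. Only adult sub-clusters had passed the ratio of 1.5 used to leave nuclei out, so P0 sub-cluster 5 with its tubule genes was kept, and ages compared in this way set a reduced adult against an unreduced P0. The matrix list had 12 called members and a median of 2.75, and the mature interstitial list had 4.

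**Figure D4:**
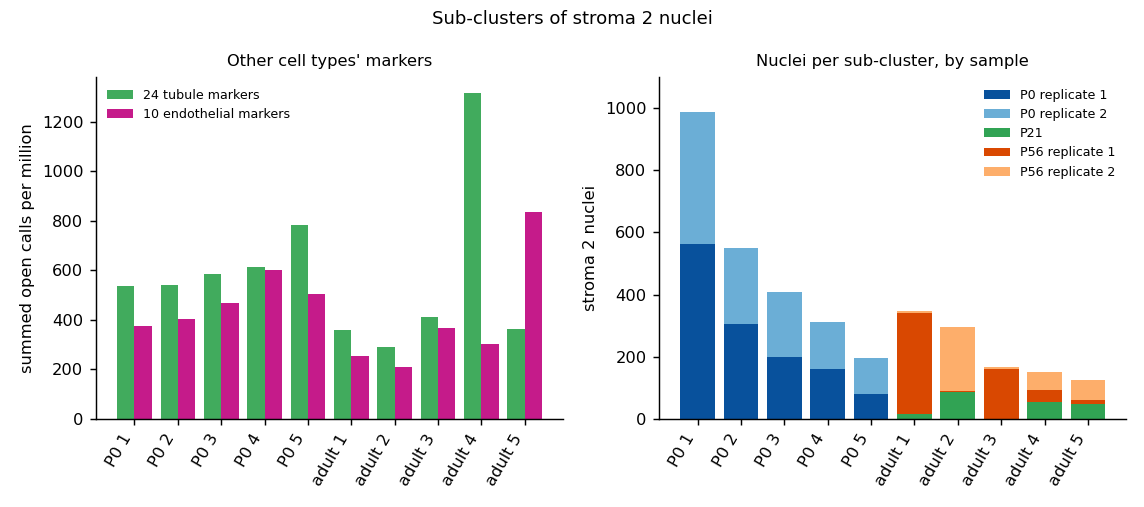
Left, summed CPM of tubule and endothelial markers in the sub-clusters of stroma 2; right, nuclei per sub-cluster, stacked by sample. Tubule markers reach 1315 in adult sub-cluster 4 and endothelial markers 835 in adult sub-cluster 5, and adult sub-clusters 1 and 3 consist mainly of P56 replicate 1.

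The ages within stroma 2 were compared to see which of its accessible genes differ between newborn and adult kidney. Medullary and hedgehog genes that passed the test were more accessible at P0. So were some markers of other cell types, with 5 of 10 endothelial, 4 of 7 nephron progenitor, 3 of 6 podocyte and 2 of 6 immune genes by edgeR, and 1, 2, 2 and 0 by DESeq2. Other markers ran the other way, with 3 of 5 proximal tubule genes (Hnf4a, Slc27a2 and Slc34a1) and 2 of 6 loop of Henle and distal genes (Slc12a3 and Umod) higher in the adult, as was Synpo of podocytes. The proximal tubule gene Cubn and 2 of 3 collecting duct genes (Atp6v0d2 and Gata3) were higher at P0. On all lists of other cell types 17 genes had the higher level at P0 and 6 in the adult (7 and 6 by DESeq2), and their part in the age differences was not tested. Of 15825 genes 3163 had higher levels at P0 (20%) and 2532 in the adult (16%) by edgeR's quasi-likelihood test at a Benjamini-Hochberg adjusted p of 0.05. Of 53951 peaks 14288 (26.5%) and 12806 (23.7%) were. Levels here are scaled over the 5 stroma 2 sums alone. The p-values measure the spread between these 5 samples, and depth moved with age. With each nucleus thinned the gene counts were 1158 and 848, and with 206 nuclei per sample 2067 and 1568. They were 1305 and 593 without P0 replicate 1, 1424 and 563 without P0 replicate 2, and without P56 replicate 1 3815 genes were higher in the adult. Without P21 the peak counts were 23751 at P0 and 19439 in the adult, and without P56 replicate 1 they were 25938 and 20619. Those fits tested 104923 and 105355 peaks, where 53951 were tested with all samples, so the counts are not on the same footing.

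Of the 309 called genes 96 were higher at P0, 59 in the adult and 154 passed neither way. Among all tested genes 20% had the higher level at P0 and 16% in adult libraries, so both shares were larger among the called genes. The called genes were chosen on sums in which the P0 libraries held the most stroma 2 calls, and the differences in share were not tested. Of 3915 called peaks 956 had the higher level at P0 and 1045 in the adult libraries, shares close to those over all tested peaks. When stroma 2 was set against the 11 clusters at each age alone, 594 genes were called at P0 and 305 in the adult, with 183 in both (30.8% and 60%). For peaks the numbers were 13247, 2643 and 1898 (14.3% and 71.8%). Each P0 library held more stroma 2 nuclei and open calls than any adult one, and the part of depth in these overlaps was not tested.

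**Figure D5:**
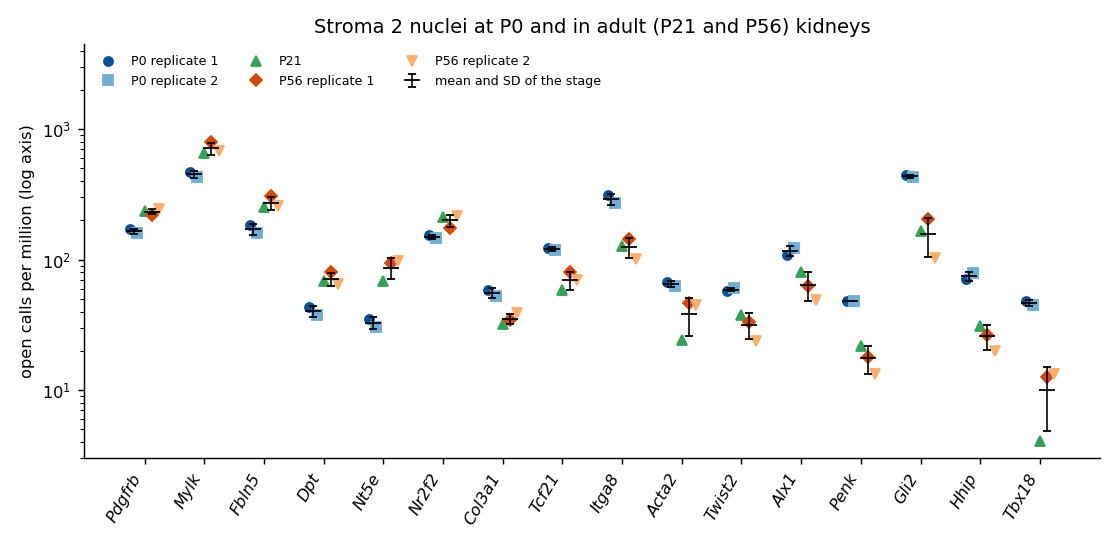
Gene activity in stroma 2 by sample for listed genes that passed the test between ages, in CPM on a log axis, with the mean and SD of P0 (n = 2) and adult (n = 3). Pdgfrb, Mylk, Fbln5, Dpt, Nt5e and Nr2f2 lie higher in the adult, and the other genes shown lie higher at P0.

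Of 11 medullary and papillary genes 9 had higher levels at P0 and 0 in the adult by edgeR, and 7 and 0 by DESeq2. At an unadjusted p under 0.05 1 was higher in the adult. Over all 15825 genes 20% had higher levels at P0 and 16% in the adult by edgeR, and 1949 and 1597 genes by DESeq2. Penk, which encodes proenkephalin, had 48.0 and 47.9 at P0 and 21.6, 17.9 and 13.2 in the adult (1.48, SE 0.194, adjusted p = 5.30e-05), with signed values given as the log2 level at P0 minus adult. Alx1 had 109 and 124 against 81.1, 62.5 and 48.8 (0.90, SE 0.163, adjusted p = 6.97e-04). In both genes the ages did not overlap. Wnt4, Wnt5a, Lef1, Slit2 and Smoc2 were higher at P0 as well. Without the 2 adult sub-clusters the list had 8 genes with higher levels at P0 and 1 in the adult. Of all 15394 genes then tested, 2993 and 2404 had. The nuclei left out differed in this list themselves, with sums of 775 CPM in sub-cluster 5 and 495 in sub-cluster 4, against 554 over all adult stroma 2 nuclei.

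Of 12 hedgehog genes 7 had higher levels at P0, namely Cdon, Gli1, Gli2, Gli3, Hhip, Ptch1 and Smo, and 5 by DESeq2. In the adult 0 were higher by edgeR, 1 at an unadjusted p under 0.05 and 0 by DESeq2. Over all 15825 genes 20% had higher levels at P0 and 16% in the adult by edgeR, and 1949 and 1597 genes by DESeq2. Gli2, the main activator of the pathway, had 442 and 429 at P0 and 165, 207 and 103 in the adult (1.46, SE 0.194, adjusted p = 6.15e-05). Hhip had 70.5 and 79.0 against 31.1, 26.6 and 19.9 (1.56, SE 0.174, adjusted p = 1.64e-05). Gli1 differed less, with 89.5 and 99.1 against 68.9, 73.1 and 66.2 (0.44, SE 0.133, adjusted p = 0.0192). Without the 2 sub-clusters the counts were 7 and 1, where 2993 and 2404 of all 15394 tested genes passed.

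Among 20 matrix genes 5 were higher at P0 (Col3a1, Fn1, Lum, Mfap5 and Tnc) and 1 in the adult (Fbln5), near the 20% of all genes at P0 and below their 16% in the adult. Col3a1 had 59.0 and 52.3 at P0 and 32.4, 34.6 and 38.9 in the adult (0.65, SE 0.156, adjusted p = 0.00525). Tnc, the tenascin of developing mesenchyme, had 114 and 100.3 against 64.9, 50.5 and 36.4 (1.13, SE 0.171, adjusted p = 1.75e-04). Fbln5 ran the other way, with 183 and 159.9 against 253, 308 and 256 (-0.67, SE 0.139, adjusted p = 0.00182). Without the 2 sub-clusters Col3a1 no longer passed (0.29, adjusted p = 0.243) and the list had 4 genes higher at P0 and 6 in the adult.

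Of 15 pericyte and smooth muscle genes 4 were higher at P0 (Acta2, Cnn1, Kcnj8 and Myocd) and 5 in the adult (Des, Lmod1, Mylk, Pdgfrb and Tagln), where 20% and 16% of all genes were. By DESeq2 the counts were 2 and 3. Pdgfrb had 171 and 160.5 at P0 and 235, 222 and 245 in the adult (-0.50, SE 0.127, adjusted p = 0.00733), and Mylk had 473 and 432 against 659, 800.0 and 685 (-0.66, SE 0.130, adjusted p = 0.00131). Acta2 had 67.5 and 63.1 against 24.3, 46.5 and 44.7 (0.68, SE 0.175, adjusted p = 0.00756). Without the 2 sub-clusters Acta2 missed the threshold (0.45, adjusted p = 0.0558) and the counts of the list were 1 and 5. Itga8 of mesangial cells was higher at P0 (1.22, SE 0.151, adjusted p = 3.48e-05).

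Among 30 stromal transcription factors 6 were higher at P0 (Ebf3, Mef2c, Nfatc4, Tbx18, Tcf21 and Twist2) and 2 in the adult (Nr2f2 and Snai2), shares no higher than the 20% and 16% of all genes. DESeq2 called 6 and 1. Without the 2 sub-clusters the counts were 4 and 3. Tbx18, a T-box factor of ureteric mesenchyme, had 48.5 and 45.1 at P0 and 4.05, 12.6 and 13.2 in the adult (2.09, SE 0.243, adjusted p = 2.21e-05). Nr2f2, an orphan nuclear receptor, had 154 and 147 against 211, 175 and 214 (-0.40, SE 0.135, adjusted p = 0.0302). Of 12 mature interstitial genes 4 were higher at P0 (Cd34, Lum, Ntm and Pi16) and 3 in the adult, and 2 and 3 by DESeq2. Those of edgeR in the adult were Dpt (-0.83, SE 0.145, adjusted p = 5.68e-04), Nt5e, an enzyme that releases adenosine (-1.44, SE 0.154, adjusted p = 1.21e-05), and Epo, which shares peaks with Gigyf1, Gnb2 and Pop7 (-0.48, SE 0.135, adjusted p = 0.0134). Without the 2 sub-clusters 4 genes of this list had higher levels at P0 and 6 in the adult.

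Several of the largest age differences lay at genes with few or no calls at 1 age. The largest towards P0 were those of Lyg1, Krt25, U90926, Actl11, Ppp1r3a, 9430069I07Rik, Myot and Crygf. The first 4 had 0 calls in all adult libraries, and against a floor of 3 calls over the adult sums (0.869 CPM) they were at least 12.01, 11.1, 10.6 and 8.66-fold higher at P0. These 4 had no value after thinning or with equal numbers of nuclei, and Actl11 had none without the 2 adult sub-clusters. The largest towards the adult were those of Gm14412, Cyp4a14, Ccl17, Spink1, Cyp2j5, E030018B13Rik, Sult1d1 and Miox. Gm14412 had 4.65 and 3.07 at P0 and 54.0, 52.5 and 52.2 in the adult (-3.76, SE 0.2398, adjusted p = 4.36e-07), and Ccl17, a chemokine gene, had 1.64 and 1.12 against 6.76, 20.6 and 19.0 (-3.58, SE 0.438, adjusted p = 3.24e-05).

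Cyp4a14, Spink1, Cyp2j5, Sult1d1 and Miox kept too few calls to be tested without the 2 adult sub-clusters. Sult1d1, a sulfotransferase, stood at 72.9 CPM in sub-cluster 4 and 1.38 in adult nuclei outside both. Slc34a1, the phosphate transporter of the proximal tubule, went from -0.81 (higher in the adult) to 0.91 without those nuclei, and the tubule factor Hnf4a from -1.11 to 0.11. Slc12a3 of the distal list stayed higher in the adult without them (-0.67, adjusted p = 0.0205 by edgeR). P0 sub-cluster 5, which was kept in that comparison, had 64.1 CPM at Slc34a1 and 84.8 at Hnf4a, and nuclei were removed at 1 age alone. Loop of Henle and distal markers summed to 128, 124, 256, 134 and 244 in the 5 libraries.

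The age difference in stroma 2 was also tested against the mean age difference of the 11 clusters. In 1184 of 17202 genes it lay above that of the others (6.88%) and in 1553 below (9.03%). It lay below for 8 of 20 matrix genes, 8 of 15 pericyte and smooth muscle genes and 12 of 30 stromal transcription factors, and above for 0, 0 and 1 (Tead1). Within stroma 2 itself 1, 5 and 2 genes of these lists were higher in the adult, so a gap below 0 need not be a rise with age. At an unadjusted p under 0.05 0 matrix and 0 contractile genes lay above. By DESeq2 0 and 0 lay above, and 9 and 5 below. Without P0 replicate 1 the counts over all genes were 488 above and 592 below, without P0 replicate 2 487 and 604, and without the 2 adult sub-clusters 2061 and 1878.

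Pdgfrb was more accessible in the adult in stroma 2, whereas its mean age difference over the 11 clusters was 0.69, towards P0, so that the gap was -1.22 (SE 0.143, adjusted p = 1.63e-09). The gap was -1.88 (SE 0.173, adjusted p = 1.69e-12) for Loxl1 and -1.04 (SE 0.135, adjusted p = 2.19e-08) for Pdgfra. Tcf21 was more accessible at P0 in stroma 2 and had a larger mean difference in the 11 clusters (2.28), a gap of -1.505 (SE 0.292, adjusted p = 8.22e-05). Ptch1 and Smo stood on the upper side, with gaps of 0.53 (SE 0.100, adjusted p = 4.89e-05) and 0.51 (SE 0.156, adjusted p = 0.0172). The gap could not be resolved for genes with 0 calls in one of the 11 clusters at 1 age, such as Col6a2.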

How the data were processed

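snATAC-seq libraries of whole kidney in 5 mouse samples were processed by the authors with Cell Ranger ATAC 1.1.0, MACS2 and the builds mm10 and GRCm38, according to the submitters' processing notes. According to the study's methods the authors kept barcodes by fragment number, mitochondrial share and promoter ratio, clustered nuclei in SnapATAC with Harmony, called peaks per cell type on pooled nuclei and merged them. The deposited file holds, per nucleus and peak, a binarized count (0 or 1), with 300755 peaks, and the annotation deposited with it gives each nucleus its sample and cluster. The peaks were thus called with stroma 2 as one of the pools, and a nucleus cannot count more than once at a peak.

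Open calls were summed per sample and named cluster (65 sums), for peaks and for GENCODE M21 protein-coding genes (peaks over the gene body and 2 kb upstream, 18234 of 21911 genes with a peak). Genes that overlap share peaks. edgeR 4.0.16 (R 4.3.3) was run with TMM scaling, a filter by filterByExpr (minimum count 10, total 15) and quasi-likelihood tests, with the sample as a block between clusters, since the clusters of a sample come from 1 library. Stroma 2 was called higher or lower when it differed from each of the 11 clusters in that direction and the largest of the 11 p-values passed a Benjamini-Hochberg threshold of 0.05. Ages were compared over the 5 stroma 2 sums (2 P0, 3 adult), and the age difference of stroma 2 with that of the 11 clusters in 1 fit. The code was tested on simulated data. Peaks were placed by exon, then intron, then the 5 kb upstream, then distal. The central 300 bp of 77091 tested peaks was searched for 22 motifs on both strands. Sub-clusters were found by Leiden clustering (resolution 0.5) at each age, and no doublet caller was run.

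The genes named were the 8 peaks and 12 genes with the largest difference that led in every library, the largest 8 age differences each way, the largest 5 gaps each way and the members of the gene lists. The members and the lists were chosen with earlier results of these data known. The alternatives were DESeq2 1.42.0 and its size factors, no filter, thinning to 1000 open peaks, equal numbers of nuclei, single samples left out, fits with and without the replicate number or sample as a block, single ages, start-site peaks alone, whole peaks for motifs and other resolutions. Some genes, members of the lists among them, are not reported here, and list counts and sums leave them out. The annotation's sample names were matched to samples by stage and number.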

Additional observations from a re-analysis of the deposited data

Results flagged for a closer look

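The results below stood out because the age difference in stroma 2 (log2 level at P0 minus adult) differed from the mean age difference of the 11 non-stromal clusters, by an interaction test in edgeR at a Benjamini-Hochberg adjusted p of 0.05. The values in parentheses are the gap, stroma 2 minus the others, on the log2 scale. A negative gap means that the level in stroma 2 leaned more towards the adult than in the other clusters. It does not mean that stroma 2 itself differed between ages. Within stroma 2 Col6a1 (-0.14), Col5a1 (-0.20) and Col6a3 (-0.26) did not pass the test between ages. The mean level of Col6a1 over the 11 clusters was 4.69 CPM at P0 and 0.670 in the adult.

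Matrix genes with a gap below 0 were Col5a1 (-0.82), Col6a1 (-3.03), Col6a3 (-1.57), Eln (-0.69), Fbln5 (-0.96), Fn1 (-0.90), Loxl1 (-1.88) and Postn (-1.67). They encode collagen chains, elastic fibre proteins, fibronectin and periostin. Pericyte and smooth muscle genes were Abcc9 (-0.69), Cspg4 (-0.42), Des (-2.03), Lmod1 (-1.55), Myh11 (-0.63), Mylk (-0.40), Pdgfrb (-1.22) and Tagln (-0.65), which encode a channel subunit, a proteoglycan, contractile and cytoskeletal proteins and the PDGF receptor. A subunit gene of guanylate cyclase, Gucy1b1 (-0.64), also had a gap below 0.

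Stromal transcription factors with a gap below 0 were Ebf1 (-0.89), Foxs1 (-1.70), Heyl (-2.0003), Meis1 (-1.01), Meis2 (-1.13), Nr2f1 (-1.21), Prrx1 (-1.17), Snai2 (-0.73), Tcf21 (-1.505), Tcf4 (-0.47), Twist1 (-0.88) and Twist2 (-1.03), and Tead1 (0.43) lay above. In the hedgehog pathway the coreceptor gene Boc (-1.32) lay below and Cdon (0.40), Ptch1 (0.53) and Smo (0.51) above. In the PDGF and TGF-beta pathway the gaps below 0 were those of Pdgfb (-0.92), Pdgfra (-1.04), Smad3 (-0.47) and Tgfbr3 (-0.37).

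Among retinoic acid genes Aldh1a3 (-0.95), Cyp26b1 (-0.71) and Ecm1 (-0.92) lay below and Stra6 (1.26), a transporter of retinol, above. In the lists of stromal regions Cxcl12 (-1.36), Dpt (-0.90), Fgfr1 (-0.42) and Nt5e (-1.63) lay below and Slit2 (0.56) above. Markers of other cells stood out too, namely Synpo (-0.98), Egfl7 (-0.98) and Kdr (-1.61) below and Ptpro (0.92), Cubn (0.63) and Flt1 (0.62) above.

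Over all genes, the gaps of largest size that passed were Ripply1 (3.91), Adra2c (3.63), Olfr986 (3.47), Tmem207 (3.39) and Akr1c20 (3.32) above and Was (-4.51), Defb12 (-4.31), Slamf8 (-3.84), Rtp2 (-3.73) and Defb25 (-3.66) below. These 10 genes had at most 16 open calls in any adult sample of stroma 2, and 8 of them lost the call under at least 1 alternative. Defb12 lost it under DESeq2, with each of the 5 samples left out and without the nuclei of 2 sub-clusters. Adra2c lost it under DESeq2, without P0 replicate 2, without P56 replicate 2 and without those nuclei.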

How the results depend on the processing

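Counts of called peaks and genes depended on depth, samples and the model. Leaving out 1 sample gave 2290 to 5119 higher and 8 to 25 lower peaks (from 3916 and 20) and 216 to 264 higher and 16 to 27 lower genes (from 309 and 35), the fewest lower ones (10, 8 and 12 peaks and 16, 18 and 18 genes) without P0 replicate 1, P0 replicate 2 and P56 replicate 1. Between ages it gave 7587 to 25938 peaks at P0 and 4334 to 20619 in the adult, 1305 to 4003 genes at P0 and 563 to 3815 in the adult, and 487 to 1293 and 592 to 1507 genes with a gap above and below the other clusters. The P0 minus adult difference in the share of nuclei stayed at 14.7 to 15.8 percentage points. Thinning to 1000 open peaks gave 163 and 3 peaks, 147 and 6 genes, and between ages 1546 and 1722 peaks and 1158 and 848 genes, with fewer features tested. Equal numbers of nuclei gave 4585 and 4220 peaks and 2067 and 1568 genes. Without a filter 17920 peaks were higher, 5 lower and 40232 higher at P0. DESeq2 gave 73 lower peaks (its size factors 71), 8296 peaks higher in the adult, and 1949 and 1597 genes between ages. P0 samples alone gave 13247 higher peaks of 174406 tested, and 594 higher and 57 lower genes. Adult samples alone gave 3 lower peaks of 59004 tested and 8 lower genes. Start-site peaks alone gave 137 higher genes. Without the nuclei of 2 sub-clusters 87 peaks and 68 genes were lower, and 2061 genes had a gap above the others. At resolution 1 there were 9 sub-clusters at P0 and 10 in the adult. Over whole peaks 3 motif ratios crossed 1, NR2F at 1.08, AP-1 at 1.08 and SOX at 1.02. Between ages 53951 peaks were tested with all samples, 104923 without P21, 105355 without P56 replicate 1 and 104933 without P56 replicate 2. Except where an alternative tested other numbers of features or samples, the cause was not tested.

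The samples share replicate numbers across ages but not animals, so the numbers do not pair them. With the number as a block between ages, 2915 genes had the higher level at P0 and 2243 in the adult, and 13009 and 11274 peaks. Without the sample as a block between clusters, 2468 peaks were higher and 11 lower, and 102 genes higher and 11 lower. For the named genes, 30 alternative values kept their direction and lost the call, and 3 ratios of motif shares turned. Adult values rest on 206 to 535 nuclei per sample, and low genes there on single calls.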

Other observations

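Called peaks of stroma 2 were counted by the gene with the nearest start, where 5.08% of all tested peaks were called. The 8 genes with at least 10 called peaks, of all tested peaks nearest to them, were Gm10295 (18 of 46), Cd180 (13 of 27), Fhl2 (12 of 21), Pkdcc (11 of 37), Cops8 (10 of 29), Lrmda (10 of 58), Pcdh18 (10 of 14) and Zfp36l1 (10 of 69). This limit was chosen after the values were seen. Fhl2 encodes a LIM protein of muscle and Pcdh18 a protocadherin. In all 2288 genes were nearest to a called peak.

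The P0 sub-clusters differed in depth and in matrix genes. Their median nucleus had 6712, 6442, 6489.5, 10387 and 10822 open peaks, and the matrix list summed to 2388, 2021, 2113, 1590.2 and 1492 CPM in sub-clusters 1 to 5. Sub-clusters 4 and 5, the deepest, had the lowest matrix sums. The medullary and papillary list summed to 686, 970.5, 1069.9, 916 and 692 CPM in sub-clusters 1 to 5.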
